A study of Mus musculus with 4 samples.

Results

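Glutamate is the main excitatory transmitter of the cortex, and its receptors fall into ion channels and G-protein coupled receptors. AMPA, kainate and NMDA receptors are tetrameric channels built from the Gria, Grik and Grin subunits, the delta subunits (Grid) act mainly as adhesion receptors at synapses, and the metabotropic receptors (Grm) signal through G proteins. AMPA and kainate channels carry auxiliary subunits that govern their export, placement and gating: the TARPs (from Cacng genes), the cornichons (Cnih) and the Neto proteins. The transcripts of 39 genes with these symbols were followed here across 4 cultures, out of 32681 genes in the deposited table. They were matched by gene symbol, and the set was drawn up with earlier results of these data known. The set held 4 AMPA, 5 kainate and 7 NMDA subunit genes, 2 Neto genes, 4 cornichons and 7 Cacng genes. It also held the delta subunit and metabotropic receptor genes.

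RNA sequencing was done on primary neuron cultures prepared from the neocortex of wild-type CD-1 mice, an outbred strain, at embryonic day 13. There were 2 control cultures, which received a control shRNA, and 2 cultures that received an shRNA against DcpS, the enzyme that cleaves the cap left over from mRNA decay. All 4 cultures were thus transfected, the control as well. A short hairpin RNA (shRNA) is processed into a small interfering RNA that lowers its target transcript. The sources used here do not give the sequence of either hairpin, the share of cells transfected or the time of harvest. Nor do they say that the replicates are of different litters or animals. P-values therefore describe how these 4 libraries vary, and that variation may be only technical.

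The libraries held 17754768 to 21793685 reads. The targeted gene, Dcps, was at 499.8 and 506.6 normalised reads in the controls and at 114.5 and 119.6 with DcpS shRNA, 23.3% of the control mean. Normalised reads are read counts divided by 1 size factor per library. The excitatory neuron list summed to 68184 to 71079 normalised reads per library, over 11 markers. It includes Tubb3, Map2 and Rbfox3, which are also found in other neurons. Tubb3, at 19013 to 19935, and Map2, at 20246 to 21924, were its highest genes, so the sum is not specific to excitatory neurons. Markers of GABAergic interneurons summed to 389 to 404 and those of microglia and macrophages to 167 to 192. Markers of other cells moved with the groups: the meningeal fibroblast list summed to 16274 and 17662 in the controls against 10387 and 9976 in the DcpS shRNA cultures, with 7 of 7 tested genes called lower (limma), and the astrocyte list to 9816 and 9999 against 8415 and 8539, with 5 of 9 tested genes called lower. The endothelial and mural list, with 3 of 6 tested genes called lower, summed to 713 and 779 in the controls against 445 and 412 in the DcpS shRNA cultures. The choroid plexus list, with 2 of 4 tested genes called lower, summed to 5236 and 5436 against 3895 and 4261. The radial glia list was higher in sum in the DcpS shRNA cultures, at 27982 and 26589 against 29696 and 28985, with 2 of 9 tested genes called higher and 1 lower. The sums of the Cajal-Retzius, oligodendrocyte lineage and excitatory neuron lists were also lower without overlap, by smaller proportions. That of the intermediate progenitor list overlapped. Single genes did not all follow the sums. On the excitatory neuron list 2 of 11 tested genes, Slc17a7 and Rbfox3, were called higher and 0 lower. On the intermediate progenitor list 2 of 6 were called higher and 0 lower. On the oligodendrocyte lineage list 1 of 7 was called higher and 1 lower, and on the Cajal-Retzius list 0 of 6 were called. The part of these cells in the results on the receptor genes was not tested. No gene on any of these lists was at 0 in all libraries. In bulk RNA, fewer cells of a type and less RNA per cell cannot be told apart.

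Among the receptor genes, 4 changed with DcpS shRNA. The AMPA subunit gene Gria3 fell to 64.8% of the control mean, Gria2 to 84.6% and the metabotropic receptor gene Grm3 to 58.5%, while the cornichon gene Cnih3 rose to 132%. A gene was called when its Benjamini-Hochberg adjusted p over all genes tested was under 0.05 in limma, on log2(normalised reads + 1). Of the 39 genes 37 passed the filter on low counts, and 33 of these were not called. The 4 called genes were 10.8% of the 37, where 5.79% of all 18110 tested genes were called. In the lower direction 3 genes were called (8.11%), where the share over all genes was 3.65%, and in the higher direction 1 was called (2.70%), where the share was 2.14%. The split between directions depended on the processing. With each library's trend on exon length and GC content removed, 3 receptor genes were called higher and 3 lower, and over all genes 673 higher and 785 lower against 387 and 661. With the replicate block added to that correction, 4 receptor genes were higher and 4 lower, and over all genes 980 and 1090. Fits without 1 library leave 1 library in a group. Their counts of calls are not comparable, so they are not used for this split. The receptor genes as a set were not tested against other genes.

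The receptor genes showed no common direction. Their median log2 fold change was −0.03, with 20 genes below 0 and 17 above, and the median over all tested genes was 0.00. The median size of the change, whatever its sign, was 0.14 for the receptor genes and 0.11 for all tested genes. Both DcpS shRNA libraries were above both controls for 11 of the 37 genes (24.4% of all tested genes did so) and below both for another 11 (24.0% of all tested genes), and the groups overlapped for the other 15. An unadjusted p under 0.05 was reached by 11 genes, 29.7% of those tested, where 18.7% of all tested genes reached it.

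**Figure D1:**
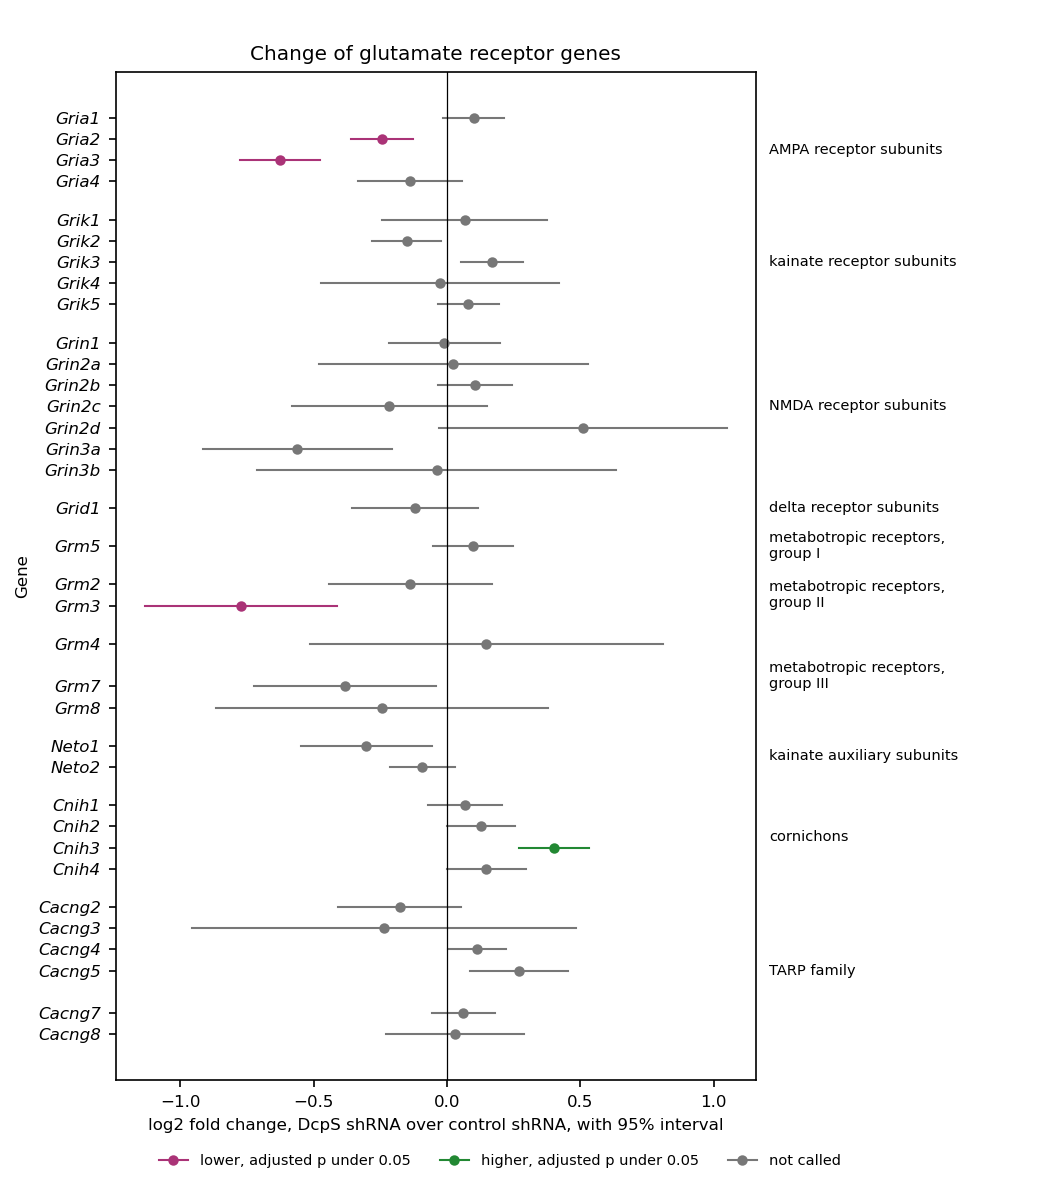
Change of 35 of the tested genes, as log2 fold change of DcpS shRNA over control shRNA (horizontal axis, points) with 95% intervals from limma (lines), grouped by receptor family. Gria2, Gria3 and Grm3 lie to the left of 0 and Cnih3 to the right, and the genes in grey were not called.

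Sequences are shown for Gria3 because it carries, in its 3′ untranslated region (UTR), a 7-base word that an earlier analysis of these data had found in many of the transcripts that fell and in Dcps itself. The words are ACGTGCA and CACGTGC, read on the transcript strand in the annotated 3′ UTRs of protein-coding transcripts (GENCODE M21, GRCm38). At least 1 of them was present in 7.19% of all 17397 genes scanned, in 33.1% of the genes called lower and in 6.27% of those called higher. The words were chosen with these fold changes known, so these shares describe the data and support nothing. Among the 39 receptor genes 4 carry a word in a 3′ UTR, among them Gria3, Cacng5 and Neto1, the last with both. Capitals mark a word in each stretch of 29 bases below, written 5′ to 3′ on the transcript strand. At the Dcps and Grm8 sites the word CACGTGC is also present and overlaps the marked ACGTGCA.
Dcps, coding sequence, chr9:35124756-35124762, minus strand: ctatcacctgcACGTGCAtttcacagctc
Gria3, 3′ UTR, chrX:41677837-41677843, plus strand: tctcatcagtaACGTGCAttggaaagttt
Cacng5, 3′ UTR, chr11:107876288-107876294, minus strand: tgtgggcaaatCACGTGCctccagagtgc
Grm8, coding sequence, chr6:27363141-27363147, minus strand: ccatgtacaccACGTGCAtcatttggtta

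The coordinates are those of the 7 bases in capitals, and the Dcps stretch lies in the 3′ UTR of a second annotated transcript, Dcps-202. In the transcript Gria3-201 the word begins at base 1500 of a 3′ UTR of 2264 bases. The Gria3 stretch shares a run of 9 bases, ACGTGCATT, with the Dcps stretch, and the Grm8 stretch shares 9, CACGTGCAT, in the coding sequence. That of Cacng5 shares 7. Of the tested receptor genes with a word Gria3 was called and the others were not. Cacng5 was higher in both DcpS shRNA libraries, Neto1 was lower in both, and the groups of Grm8 overlapped. The coding sequences of Grik5, Grin2c and Grm6 also hold a word. Grik5 and Grin2c were not called, and Grm6 was not tested. Gria2, Grm3 and Cnih3 hold neither word in a 3′ UTR. Whether the word has a part in the fall of Gria3 was not tested.

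The AMPA receptor genes set the fast excitatory current, and the GluA2 subunit, the product of Gria2, makes the channel nearly impermeable to calcium once its transcript is edited. Gria3 (chromosome X, 41400854 to 41678601, plus strand) encodes GluA3. It was at 853 and 886 normalised reads in the controls and at 546 and 581 with DcpS shRNA. Both DcpS shRNA libraries lay far below both controls, and the spread within each group was small beside the gap. The mean went from 870 ± 23.2 to 564 ± 24.8 (SD, n = 2 per group), a log2 fold change of −0.63 (SE 0.07, limma adjusted p 3.96e-05). Gria3 stayed called in all 16 alternative analyses, with log2 fold changes from −0.67 to −0.58.

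Gria2 (chromosome 3, 80681450 to 80802835, minus strand) had the second highest level per kilobase of merged exons among the 39 genes, 978 normalised reads per kilobase on average. It was at 16117 and 16853 normalised reads in the controls and at 14554 and 13324 with DcpS shRNA. The groups did not overlap, and the DcpS shRNA libraries were spread more widely than the controls. The log2 fold change was −0.24 (SE 0.05, limma adjusted p 0.0132). The call ended without control 1 (−0.28, limma adjusted p 0.0692) and without control 2 (−0.21, limma adjusted p 0.247).

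The other AMPA genes were not called. Gria1, which encodes GluA1, was at 1787 and 1810.1 normalised reads in the controls and at 1919 and 1938 with DcpS shRNA, a little above in both. Its log2 fold change was 0.10 (95% interval −0.01 to 0.21). Gria4, which encodes GluA4, was at 408 and 452 against 372 and 409, with overlapping groups and an interval of −0.33 to 0.05.

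The make-up of the AMPA pool was computed from normalised reads per kilobase of merged exons. Gria2 took 69.9% and 70.2% of the summed AMPA level in the controls against 68.4% and 65.8% in the DcpS shRNA libraries. Gria3 took 5.83% and 5.82% in the controls against 4.05% and 4.53% in the DcpS shRNA libraries. The share of Gria1 was 19.9% and 19.4% in the controls against 23.2% and 24.6% in the DcpS shRNA libraries. So the shares of Gria2 and Gria3 were lower, and that of Gria1 higher, in both DcpS shRNA libraries, while Gria4 stayed between 4.31% and 4.98% throughout. The summed level itself was 1484 and 1545 normalised reads per kilobase in the controls against 1368 and 1301 in the DcpS shRNA libraries. These shares are a description with no test. Per kilobase of the longest transcript the mean share of Gria2 went from 73.6% to 71.8% and that of Gria3 from 7.73% to 5.79%.

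**Figure D2:**
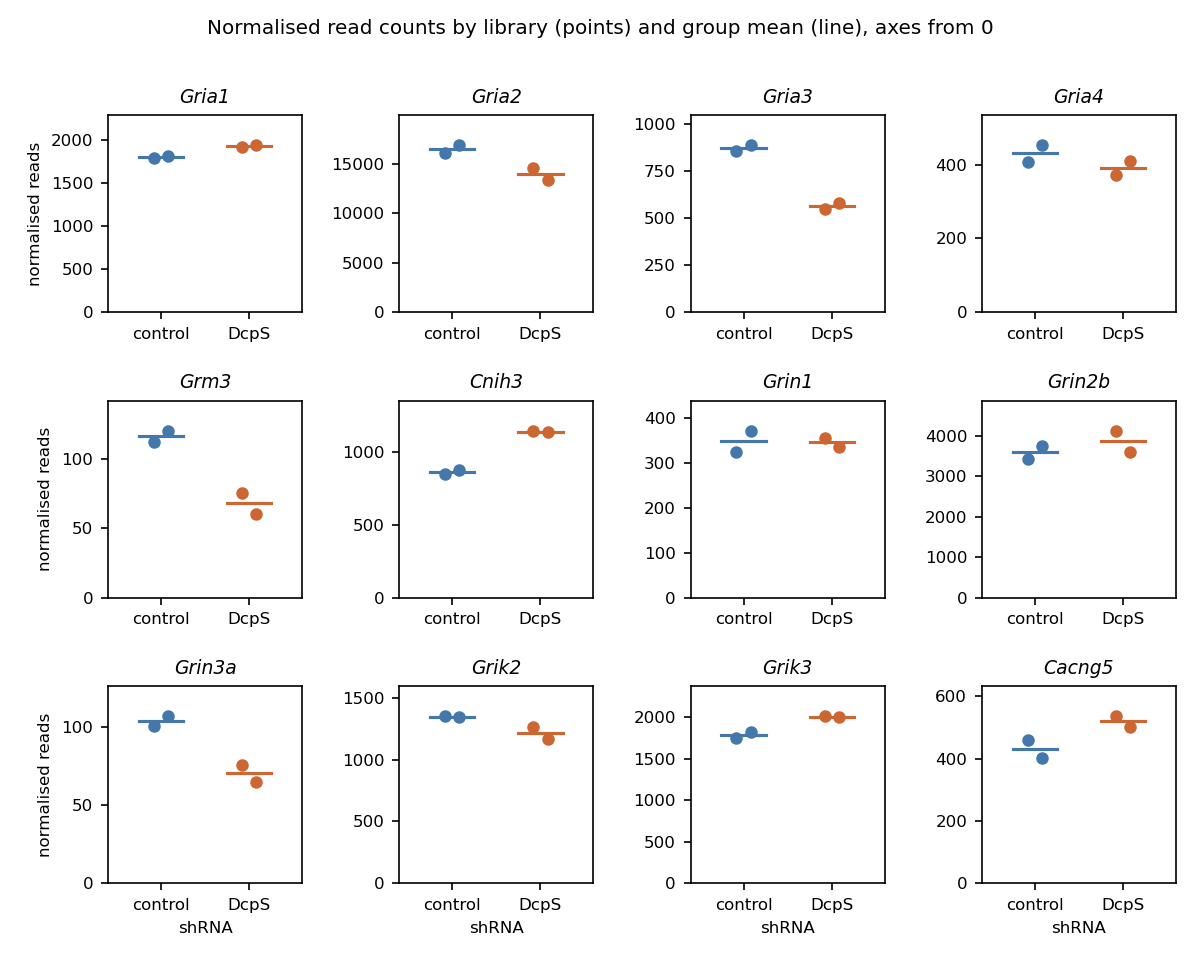
Normalised read counts (vertical axes, from 0) of 12 genes in each library, with points for libraries and lines for the group means (n = 2 per group). Gria2, Gria3 and Grm3 sit lower and Cnih3 higher in both DcpS shRNA libraries, and the points of Grin1 overlap between the groups.

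AMPA receptor function depends on auxiliary subunits, of which the cornichons promote export from the endoplasmic reticulum and slow channel closing. Cnih3 (chromosome 1, 181352628 to 181460641, plus strand) was at 849 and 878 normalised reads in the controls and at 1145 and 1134 with DcpS shRNA. The DcpS shRNA libraries were nearly equal and both well above the controls. The log2 fold change was 0.40 (SE 0.06, limma adjusted p 0.000754), and the call held in all 16 alternatives, at 0.38 to 0.42. Cnih3 made up 12.8% and 14.1% of the summed cornichon level per kilobase in the controls against 15.87% and 16.02% in the DcpS shRNA libraries.

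The other cornichon genes also had means above the control, none past the threshold. Cnih2, the main AMPA-associated cornichon with Cnih3, had the highest level per kilobase of merged exons of all 39 genes, 1272 on average. Per kilobase of the longest transcript (10371 bases in Gria2, 1343 in Cnih2) Gria2 stood above Cnih2. Cnih2 was at 1750.2 and 1582 normalised reads in the controls and at 1851 and 1785 with DcpS shRNA. Its log2 fold change was 0.13 (95% interval 0.00 to 0.26). Cnih4 was at 807 and 847 against 868 and 966 (0.15, interval 0.00 to 0.29), with no overlap between the groups. Cnih1 had overlapping groups, at 990.1 and 913 against 1015 and 978. Cnih1 and Cnih4 belong to the general cargo export machinery and are found in many tissues.

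In the TARP family 0 of the 6 tested genes were called by limma, edgeR or DESeq2, and 2, Cacng4 and Cacng5, had an unadjusted p under 0.05. Cacng7, or γ-7, and Cacng4, or γ-4, led the family at 873 and 724 normalised reads per kilobase on average. Cacng7 was at 2161 and 2012 normalised reads in the controls and at 2177 and 2171 with DcpS shRNA, and Cacng4 at 2472 and 2507 against 2694 and 2685. The latter difference, 0.11 on the log2 scale, had an unadjusted p of 0.0471 (limma, adjusted 0.261).

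Cacng5, which encodes γ-5, was at 460 and 403 normalised reads in the controls and at 536 and 503 with DcpS shRNA. Both DcpS shRNA values lay above both controls, but the controls differed from each other by more than the gap between the groups. Its log2 fold change was 0.27 (SE 0.09, limma adjusted p 0.0891). It became called without control 1 (0.36, limma adjusted p 0.0264) and without DcpS shRNA 2 (0.32, limma adjusted p 0.0422).

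Stargazin, the product of Cacng2 and the founding TARP, was at 296 and 254 normalised reads in the controls and at 244 and 240.3 with DcpS shRNA (−0.18, 95% interval −0.41 to 0.05). Cacng8, or γ-8, a forebrain TARP, was at 170.1 and 184 against 175 and 186. Cacng3 was low, with 14 to 23 reads per library, and had an interval of −0.96 to 0.48. Cacng6, grouped with the TARP genes here by its symbol alone, had 0 to 2 reads per library and was not tested.

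**Figure D3:**
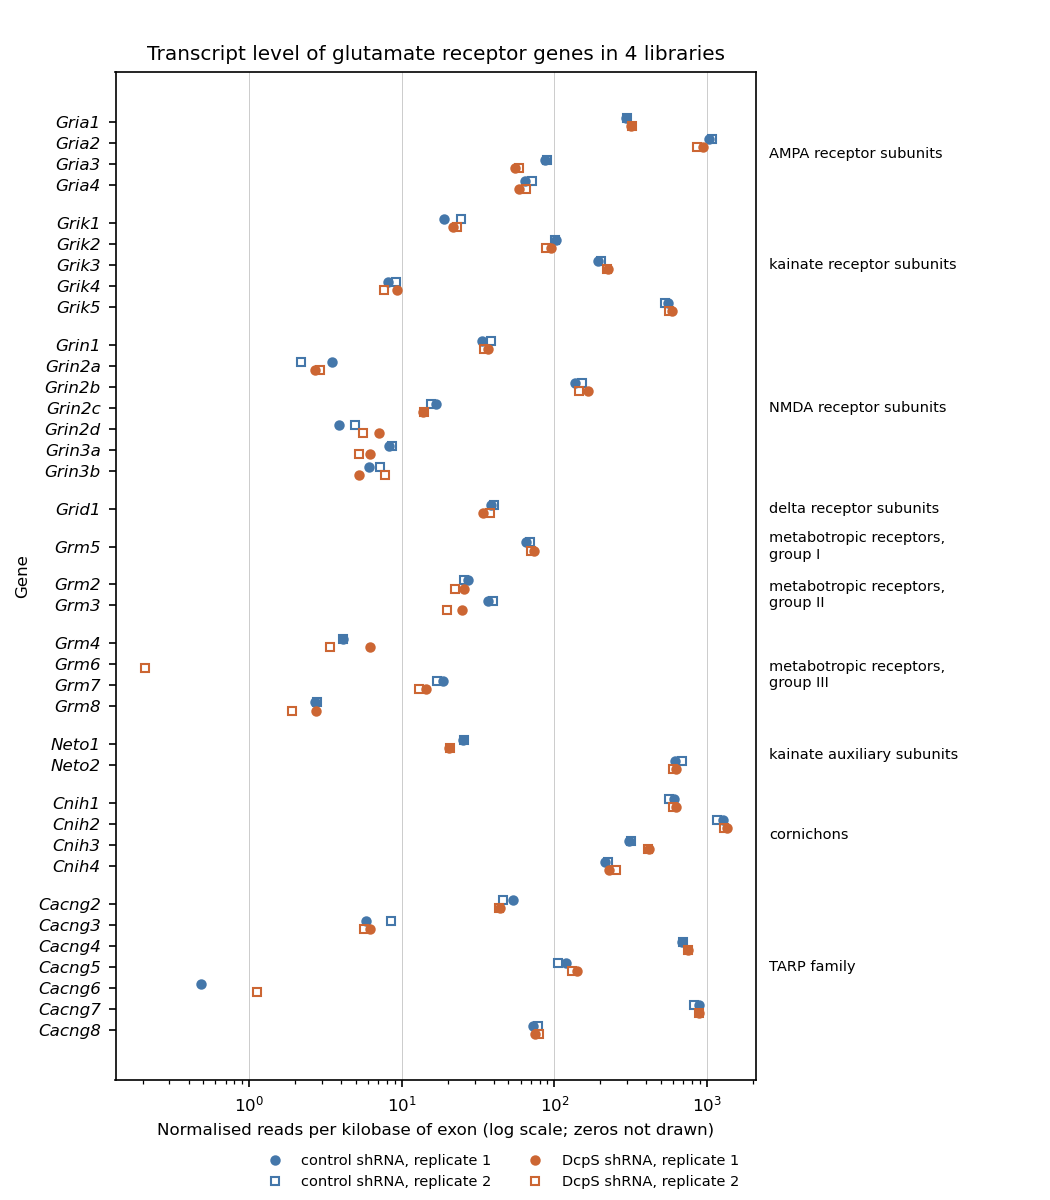
Level of 37 of the 39 genes per library, as normalised reads per kilobase of merged exons on a log axis, with filled circles for replicate 1 and open squares for replicate 2. Within ionotropic families Gria2, Grik5 and Grin2b lead, and Cacng6 and Grm6 lie at the bottom.

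Kainate receptors pair the Grik1 to Grik3 subunits, which can form channels alone, with the Grik4 and Grik5 subunits, which cannot. Of the 5 genes 0 were called by limma, edgeR or DESeq2, and 2, Grik2 and Grik3, had an unadjusted p under 0.05. Grik5 led the family at 560.3 normalised reads per kilobase and was at 2890.4 and 2740.2 normalised reads in the controls and at 3054 and 2898 with DcpS shRNA (0.08, 95% interval −0.04 to 0.20). Grik3 was at 1743 and 1825 in the controls and at 2009 and 1997 with DcpS shRNA. Both DcpS shRNA values were higher, by 0.17 on the log2 scale (SE 0.05, limma adjusted p 0.0927). With each library's trend on exon length and GC content removed, Grik3 was called (0.19, limma adjusted p 0.0166).

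Grik2 leaned the other way. It was at 1352 and 1348 normalised reads in the controls and at 1268 and 1164 with DcpS shRNA, where the controls nearly coincided and the DcpS shRNA libraries were spread. Its log2 fold change was −0.15 (SE 0.06, limma adjusted p 0.186), and it became called without DcpS shRNA 1 (−0.21, limma adjusted p 0.0302). Grik1 and Grik4 had overlapping groups, with 133 to 161 and 41 to 61 reads per library.

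Neto2 and Neto1 encode auxiliary subunits that slow kainate receptor currents. Neto2 took most of the summed level and was at 3808 and 4207 normalised reads in the controls and at 3841 and 3665 with DcpS shRNA, with overlapping groups (−0.09, 95% interval −0.22 to 0.03). Neto1, with both words in its 3′ UTR, was at 209 and 213 in the controls and at 169.9 and 172 with DcpS shRNA. The replicates of Neto1 agreed closely within each group, and the log2 fold change was −0.30 (SE 0.12, unadjusted p 0.0189, limma adjusted p 0.160).

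NMDA receptors need the GluN1 subunit, encoded by Grin1, together with GluN2 or GluN3 subunits, and GluN2B, from Grin2b, is the GluN2 subunit typical of embryonic cortex. In these cultures Grin2b took 65.6% and 66.3% of the summed NMDA subunit level per kilobase of merged exons in the controls against 69.8% and 67.4% in the DcpS shRNA libraries. Grin2a, the gene of the subunit that becomes prominent after birth, took 0.954% to 1.67%. Per kilobase of the longest transcript the share of Grin2b was 53.8% and 53.9% in the controls against 57.8% and 55.5% in the DcpS shRNA libraries. The mean control share of Grin1 was 16.4% per kilobase of merged exons and 29.5% per kilobase of the longest transcript. Of the 7 NMDA genes 0 were called by limma, edgeR or DESeq2, and 1, Grin3a, had an unadjusted p under 0.05, while the summed level overlapped between the groups.

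Grin1 was at 326 and 372 normalised reads in the controls and at 357 and 335 with DcpS shRNA. The groups overlapped, and the log2 fold change of −0.01 had a 95% interval of −0.22 to 0.20. Grin2b was at 3417 and 3748 in the controls and at 4117 and 3596 with DcpS shRNA, again overlapping (0.10, SE 0.07, limma adjusted p 0.432). It became called without DcpS shRNA 2 (0.20, limma adjusted p 0.00631) and with the length and GC trend removed (0.18, limma adjusted p 0.0164).

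Grin3a encodes GluN3A, a subunit that lowers calcium permeability in juvenile synapses. It was at 101 and 107 normalised reads in the controls and at 75.4 and 64.8 with DcpS shRNA. Both DcpS shRNA values were lower, with a mean at 67.6% of the control mean and a log2 fold change of −0.56 (SE 0.17, limma adjusted p 0.0626). It became called without DcpS shRNA 1 (−0.67, limma adjusted p 0.0258).

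The remaining NMDA genes were low. Grin2c had 63 to 89 reads per library, Grin2a 38 to 66, Grin2d 27 to 52 and Grin3b 19 to 23. Grin2d was higher in both DcpS shRNA libraries, at 47.2 and 36.9 normalised reads against 25.7 and 32.8, with a wide interval of −0.03 to 1.05. At these counts the test could not tell such a difference from none. Of the exon bases of Grin3b 32.1% overlap the antisense gene Tmem259, and 13.5% of those of Grin1 overlap Grin1os. The sources used here do not say whether counting used strand, so reads from such pairs cannot be told apart.

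Grid1, a delta subunit gene, was at 229 and 239 normalised reads in the controls and at 204 and 227 with DcpS shRNA. Both DcpS shRNA values were a little lower, and it was not called (−0.12, 95% interval −0.36 to 0.12).

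Metabotropic receptors divide into group I, which includes Grm5 and couples to phospholipase C, and groups II (Grm2 and Grm3) and III (Grm4, Grm6, Grm7 and Grm8), which lower cyclic AMP. Grm3 (chromosome 5, 9485541 to 9725170, minus strand) encodes mGlu3, found in rodents in neurons and in astrocytes. It was at 112 and 120.0 normalised reads in the controls and at 75.4 and 60.3 with DcpS shRNA, from 118, 117, 83 and 54 reads. Both DcpS shRNA libraries were clearly below the controls, and they differed from each other more than the controls did. The log2 fold change was −0.77 (SE 0.17, limma adjusted p 0.0120), the largest of the tested receptor genes in size. DESeq2 did not call it (−0.77, DESeq2 adjusted p 0.132), and it stayed called without each library in turn. Of the 10 genes on the astrocyte list 5 were called lower. Gja1, the astrocyte gap-junction gene, was at 688 and 706 normalised reads in the controls and at 412 and 465 with DcpS shRNA, and it carries the word ACGTGCA in a 3′ UTR. Sparcl1, Slc4a4, Gfap and Aqp4 were the others called lower. Gfap was not called without control 2 (limma adjusted p 0.212) and Aqp4 not by DESeq2 (DESeq2 adjusted p 0.110). Aldh1l1 (−0.43), Slc1a2 (−0.22), Slc1a3 (−0.12) and Fgfr3 (0.06) were not called, and S100b was too low to test. Slc1a3, the glial glutamate transporter GLAST and the most abundant of the list, was at 2813 and 2877 normalised reads in the controls and at 2550.3 and 2681 with DcpS shRNA. Fgfr3 had overlapping groups, at 2267 and 2131 against 2360 and 2219. The part of astrocyte RNA in the fall of Grm3 was not tested.

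Grm2, the other group II gene, had overlapping groups at 133 and 125 against 125 and 109.5 normalised reads (−0.14, 95% interval −0.44 to 0.17). Grm5, which encodes mGlu5, the leading metabotropic gene at 69.7 normalised reads per kilobase, was at 667 and 715 in the controls and at 756 and 721 with DcpS shRNA (0.10, interval −0.05 to 0.25), a little higher in both. In group III, Grm7 was at 109 and 101 normalised reads in the controls and at 84.5 and 76.0 with DcpS shRNA. Both DcpS shRNA values of Grm7 were lower (−0.38, SE 0.16, unadjusted p 0.0304, limma adjusted p 0.209). Grm4 and Grm8 had 18 to 41 and 17 to 30 reads per library and overlapping groups. Grm6, a receptor of retinal bipolar cells, had 1 read in all 4 libraries together and was not tested.

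**Figure D4:**
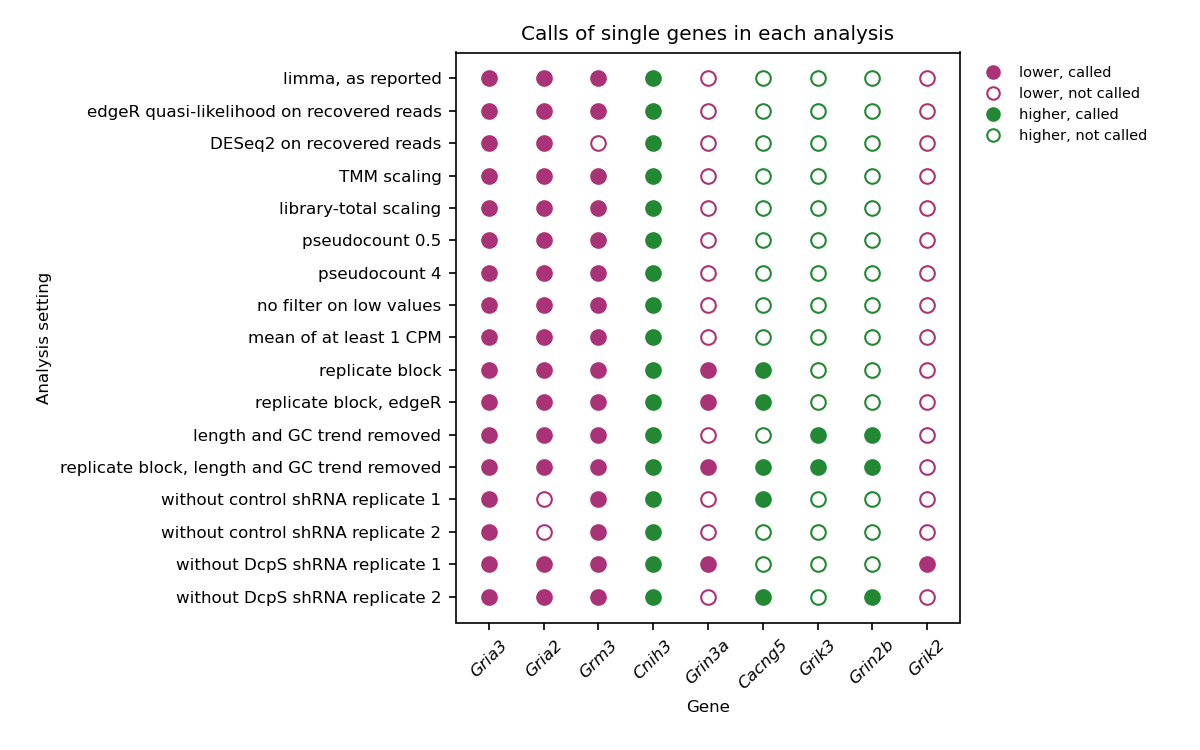
Calls of 9 receptor genes (horizontal axis) in the reported analysis and 16 alternatives (vertical axis), with filled points for an adjusted p under 0.05 and colour for direction. Gria3 and Cnih3 are filled in every row, Gria2 is open without control 1 or control 2, and Grm3 is open with DESeq2.

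Other count-based tests gave nearly the same receptor genes. The edgeR quasi-likelihood test on the recovered reads called Gria2, Gria3, Grm3 and Cnih3, the same 4 genes, where it called 5.95% of all genes. DESeq2 called Gria2, Gria3 and Cnih3, 3 of the 33 receptor genes to which it gave an adjusted p. Over all genes it called 448 of the 14950 with an adjusted p, which is 2.47% of the 18110 fitted. The direction of each of the 4 genes was the same in all alternatives.

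Around the receptors, 92 other genes of the glutamate synapse were grouped in 5 lists, and 90 were tested. Of these 10 were higher and 9 lower, 21.1% in all. Over all tested genes 5.79% were called, 2.14% higher and 3.65% lower. The median log2 fold change of the 90 genes was −0.03. These lists were drawn up with results of these data known, so the share is no independent evidence. Of the 9 lower genes 5 carry a 7-base word in a 3′ UTR, and of the 10 higher genes 1 does.

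Receptor partners and biogenesis factors were called in both directions, 4 higher and 3 lower of 22 tested. Frrs1l, which helps assemble AMPA receptors in the endoplasmic reticulum, fell from 742 and 798 normalised reads in the controls to 487 and 462 with DcpS shRNA. That is a log2 fold change of −0.70 (SE 0.08, limma adjusted p 2.51e-05), and Frrs1l carries the word ACGTGCA in a 3′ UTR, as Gria3 does. Nptxr, a pentraxin that clusters AMPA receptors, rose from 876 and 953 to 1308 and 1452 (0.59, SE 0.07, limma adjusted p 4.78e-05) and carries CACGTGC. Gsg1l, another auxiliary subunit of AMPA receptors, rose from 309 and 282 to 441 and 377 (0.46, SE 0.10, limma adjusted p 0.0112), a call that DESeq2 did not make (DESeq2 adjusted p 0.0660).

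Among 28 scaffold and trafficking genes 3 were higher and 1 was lower. Dlg2, which encodes the postsynaptic scaffold PSD-93, rose from 954 and 1056 normalised reads to 1337 and 1395 (0.44, SE 0.06, limma adjusted p 0.000501). Lin7c, a PDZ adaptor, rose from 3860 and 3729 to 5014 and 5284 (0.44, SE 0.05, limma adjusted p 7.23e-05). Dlgap3, a scaffold that links PSD-95 proteins to Shank proteins, rose from 393 and 380.5 to 553 and 479 (0.41, SE 0.09, limma adjusted p 0.0108), but not without DcpS shRNA 1 (0.31, limma adjusted p 0.0518) or with DESeq2 (DESeq2 adjusted p 0.0666).

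Of 16 genes for glutamate synthesis, vesicular loading and uptake, 1 was higher and 1 lower. Slc17a7, the vesicular glutamate transporter VGLUT1, rose from 828 and 879 normalised reads to 1201 and 1253 (0.52, SE 0.06, limma adjusted p 8.08e-05). Got2, the mitochondrial aspartate aminotransferase, fell from 3062 and 3074 to 2481 and 2692 (−0.25, SE 0.06, limma adjusted p 0.0129), and was no longer called without control 1 (limma adjusted p 0.0552) or control 2 (limma adjusted p 0.0723). In metabotropic receptor signalling 2 of 21 genes were higher and 4 lower. Rgs4, which speeds the shut-off of Gi and Gq proteins, rose from 437 and 400 to 538 and 637 (0.48, SE 0.09, limma adjusted p 0.00400). Elfn2, a synaptic partner of group III receptors, rose from 582 and 626 to 773 and 777 (0.36, SE 0.07, limma adjusted p 0.00543). Itpr1, the calcium-release channel that answers group I receptors, was at 2704 and 2726 normalised reads in the controls and at 2172 and 1977 with DcpS shRNA (−0.39, SE 0.06, limma adjusted p 0.000528). Of the 3 RNA editing genes tested, Adar, Adarb1 and Adarb2, 0 were called by limma and 1 had an unadjusted p under 0.05. That gene, Adarb1, encodes the enzyme that edits the GluA2 transcript, and it was at 677 and 665 normalised reads in the controls and at 597 and 590.04 with DcpS shRNA (−0.18, limma adjusted p 0.185).

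**Figure D5:**
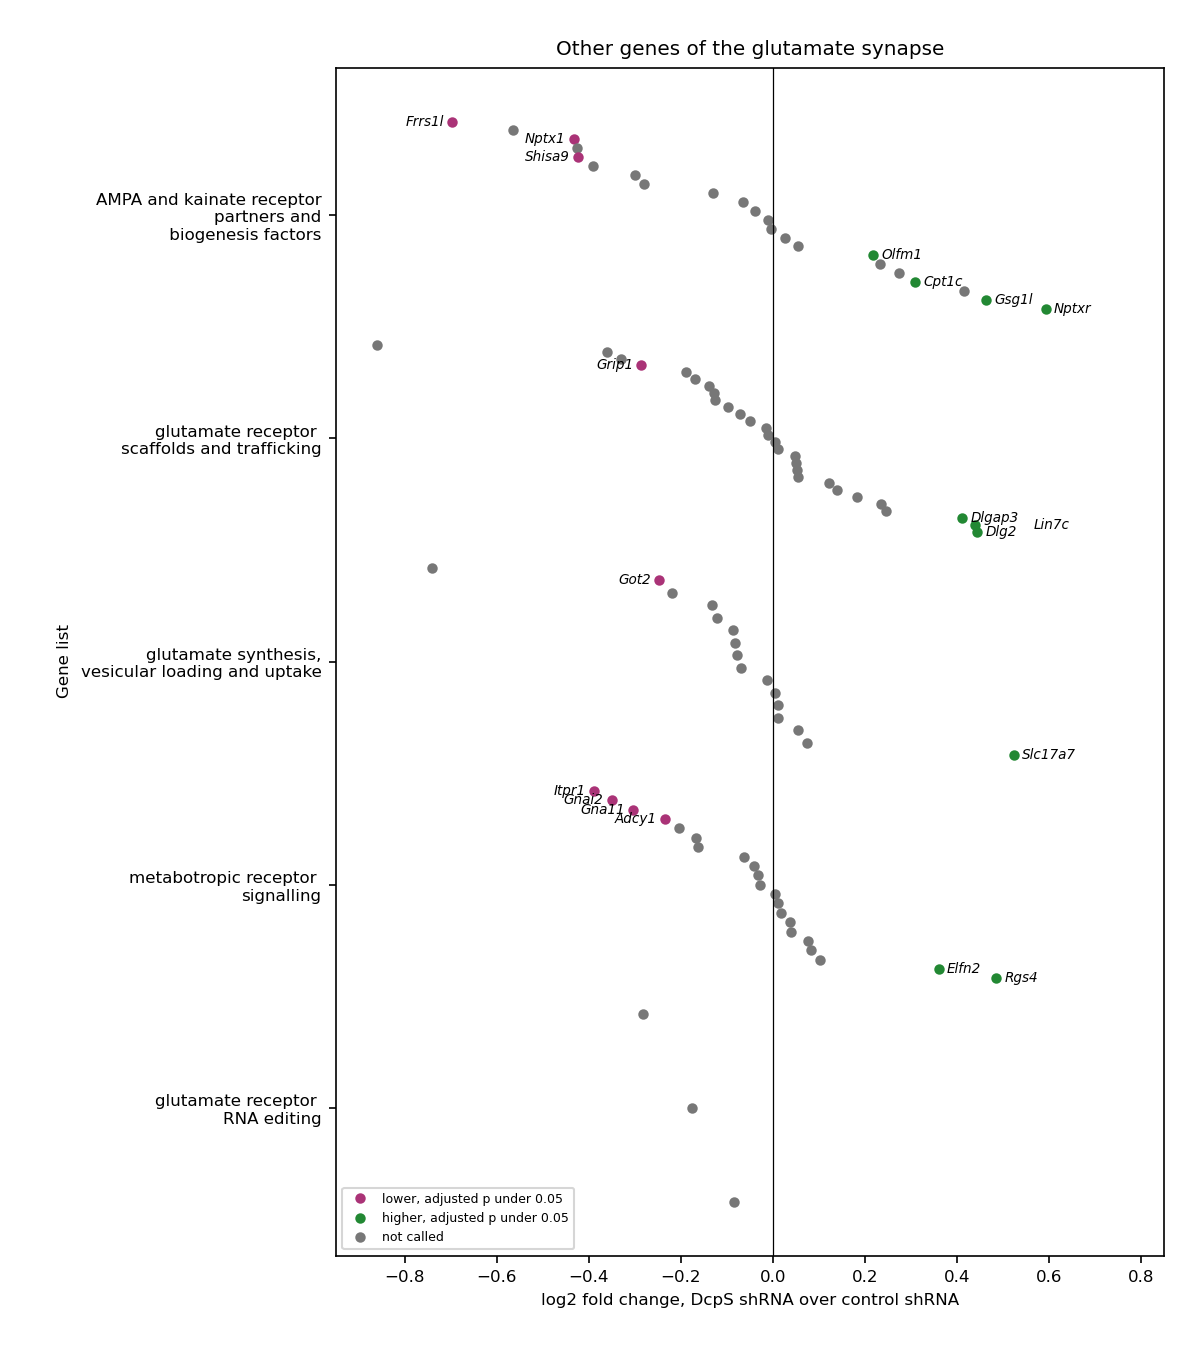
Log2 fold change of DcpS shRNA over control shRNA (horizontal axis) for the 90 tested genes of 5 glutamate synapse lists (vertical axis, genes ordered by change within each list). Named points passed an adjusted p of 0.05, 10 to the right of 0 and 9 to the left.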

How the data were processed

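The authors deposited a table of normalised signal per gene (unit: signal), and the steps of its values are those of read counts divided by 1 size factor per library. Per the submitters' processing notes, HISAT2 2.2.0, SAMtools 1.3.1, Picard, featureCounts and DESeq2 were used, with GRCm38. Whole reads were recovered from the value steps for 100% of values, within 0.001 of a whole number, and give library totals of 17754768 to 21793685.

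Genes were kept by edgeR 4.0.16 filterByExpr with a minimum count of 10, which left 18110 of 32681. The main test was limma 3.58.1 (R 4.3.3) on log2(value + 1), with trended, robust variance, the 2 groups of 2 libraries and 2 residual degrees of freedom before variance sharing. P-values were Benjamini-Hochberg adjusted over all tested genes, with a threshold of 0.05. Fold changes on this scale understate changes of low genes. An exact permutation test of 2 against 2 cannot go below 0.333, so none is given. edgeR and DESeq2 1.42.0 on the recovered reads, other scalings, pseudocounts and filters, a replicate block, a length and GC trend and leaving out each library were alternatives. The fit was tested on simulated data with 200 changed genes among 18110. It made 172 calls, of which 12 (6.98%) were false. It recovered 64.6% of the 1.5-fold, 75% of the 2-fold and 100% of the 4-fold changes. Changes under 1.5-fold were not simulated.

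Levels between genes were compared per kilobase of merged exons of GENCODE M21 (GRCm38), to which 31622 genes matched. Words were searched in the annotated transcripts, on the transcript strand, in overlapping windows. Members were all genes matched by symbol. They enter every count, and the values of 2 of them are not reported here. By rule, library values are given for members that passed the test, members called only by an alternative and the member with the highest level in each family, and for the up to 3 called genes with the largest fold changes of each other list. Library values of further members, and of Adarb1 and the astrocyte markers, were added after they were seen. Members, lists and words were chosen with earlier results of these data known.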

Additional observations from a re-analysis of the deposited data

How the results depend on the processing

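Of the 18110 genes tested, 1048 were called. DESeq2 on the recovered reads called 448, the edgeR test 1077, and scalings, pseudocounts and filters gave 1008 to 1160. Leaving out 1 library gave 747 (without control 2) to 1745 genes (without DcpS shRNA 1), and 3 (without control 2) to 6 receptor genes (without DcpS shRNA 1 or DcpS shRNA 2). A fit that leaves 1 library in an arm assumes that it varies like the other group. Over genes the DcpS shRNA libraries differed more from each other than the controls did (chi-square per degree of freedom 3.73 against 2.04). Fits without a DcpS shRNA library and fits without a control thus rest on unlike variances, and their calls are not comparable.

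The sample titles give both groups the same set numbers, 1 and 2, but no label says that a set shared a litter, batch or day. The difference between set 1 and set 2 correlated at 0.0429 between the groups over genes, so the numbers were not taken to pair the cultures, and a pairing cannot be told from these labels. With the replicate block 1626 genes were called, and with the block and the length and GC trend removed 2070, of which 8 were receptor genes against 4 in the reported fit. Under the block Grin3a (limma adjusted p 0.0234) and Cacng5 (limma adjusted p 0.0262) were also called, as they were with edgeR (edgeR adjusted p 0.0402 and 0.0474). The cause of these differences was not tested.

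Over the single genes and the alternatives, 569 results kept the call or its absence, 15 became called and 3 lost the call. Where either fit called the gene, 0 changed direction. Genes called by neither fit could change direction, as Grik1 did (0.07 in the reported fit, −0.12 without control 1). DESeq2 gave no adjusted p for 4 genes, Grin3b, Grm4, Grm8 and Cacng3. The mean share of Gria2 in the AMPA level changed by −2.87 percentage points per kilobase of merged exons, −1.34 without division by length and −1.81 per kilobase of the longest transcript.
Genes under about 30 reads per library, such as Grm8, had standard errors near 0.3, so moderate changes in them could not be resolved.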
